A study of Mus musculus with 2 samples.

Results

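Single-nucleus RNA sequencing of tumors from the dFLEx CDS mouse was used to compare 4 untreated tumors with 2 tumors named as responders to Minnelide. In the dFLEx CDS model, plasmids carrying Cre and FLP recombinases are electroporated into the calf muscle and switch on the human CIC::DUX4 fusion gene, so that a sarcoma arises at that site in an animal with an intact immune system. The untreated mice received no drug and are labelled dFLEx CDS +/-. Minnelide was given to the treated mice at 0.42 mg/kg over 21 days, and their label repeats the dFLEx CDS name without the allele. The labels give neither age nor sex. The word responder stands only in the names of the deposited matrices, and the study chose these tumors by their growth under the drug. An effect of the drug therefore cannot be told apart from traits that the responding tumors had beforehand. Of the 57052 nuclei deposited for these 6 tumors, 45445 had at least 1000 unique molecular identifiers (UMIs, each standing for a counted RNA molecule) and under 5% of them in mitochondrial genes. They came from 60121 nuclei that met the same limits in all 8 tumors of the series.

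CIC::DUX4 joins the DNA-binding repressor CIC to the activating end of DUX4, and thereby turns genes that CIC normally silences, among them the ETS factors Etv1, Etv4 and Etv5, into activated targets. Minnelide releases triptolide in the body, and triptolide binds the XPB helicase of the general transcription factor TFIIH, which the gene Ercc3 encodes, and blocks the start of transcription by RNA polymerase II. RNAs that decay fast, such as those of immediate early genes, are known to be the first to be lost when polymerase II is blocked. Sarcomas of muscle also hold fibroblasts, vessels, macrophages, osteoclast-like giant cells and remaining muscle fibers.

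The kept nuclei held 12721817 to 72501441 UMIs per tumor, with medians of 1729 to 4037 UMIs per nucleus. Untreated 4 was the shallowest tumor, and 7375 of its 12615 deposited nuclei were under the limit of 1000 UMIs. Tumors of opposite groups shared cell barcodes in the pairs untreated 1 with responder 1 (132 barcodes) and untreated 2 with responder 2 (49 barcodes), and no barcode was shared by any other pair among the 6. Both pairs also had the same bases at a fixed place within the barcode, and no other pair among the 6 did. The Minnelide tumors left out did likewise with untreated 3 (111 barcodes) and untreated 4 (63 barcodes). Each Minnelide tumor thus matched a different untreated tumor, and no barcode was shared within a group. The paper states that the libraries were made with on-chip multiplexing. The labels give no sequencing run, so that run and treatment cannot be told apart. Nuclei were grouped by clustering and named from marker genes as "-like" classes, since the names were rebuilt here and are not the authors' own. The main tumor-like cluster of each tumor was nearly its own, namely cluster 1 in responder 1 (87.8% of its tumor-like nuclei), cluster 12 in responder 2 (97.2%), cluster 6 in untreated 2 (66.2%), cluster 4 in untreated 3 (82.0%) and cluster 2 in untreated 4 (98.4%). Untreated 1 divided between clusters 7 (52.4%) and 9 (44.4%). A cluster of 2698 nuclei, 95.1% of them from responder 2, carried tumor and muscle transcripts together and stayed unnamed.

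Untreated 1 stood apart from the other tumors. In its tumor-like nuclei the 5 tumor markers (Etv1, Etv4, Etv5, Shc3 and Shc4) summed to 11178 CPM (UMIs of a gene scaled to an equal total in each tumor and class, as counts per 1e6 UMIs), against 11947 to 16182 CPM in the other 5 tumors. The 8 endothelial markers summed to 2868 CPM there and to between 439 and 606 CPM elsewhere. The 24 measured G2/M genes of the cell cycle summed to 482 CPM in untreated 1 and to between 1203 and 1865 CPM elsewhere. The 9 myocyte markers were high in the tumor-like nuclei of untreated 1 (8159 CPM) and of responder 2 (5294 CPM), and ran from 861 to 3681 CPM in the others. The part of these transcripts in the comparisons was not tested, and the main counts are therefore also given without untreated 1.

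**Figure D1:**
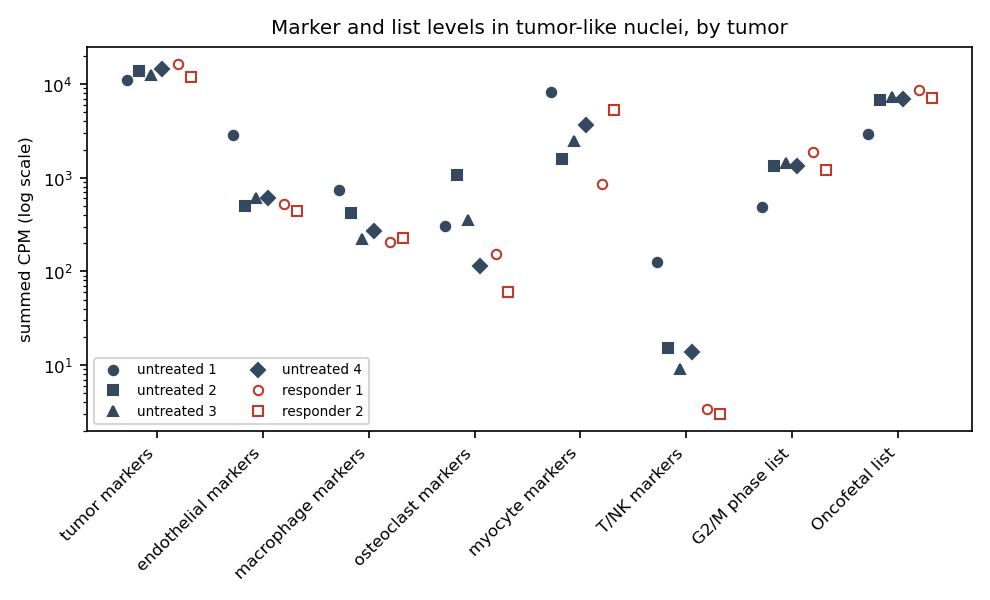
Summed CPM (log scale) of marker genes and of 2 gene lists in the tumor-like nuclei of each tumor. Filled symbols are the 4 untreated tumors and open symbols the 2 responders. Untreated 1 is the highest tumor for endothelial markers (2868 CPM) and the lowest for G2/M genes (482 CPM).

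The share of each class was compared first, to ask whether responders held fewer tumor nuclei. They did not separate from untreated tumors. Tumor-like nuclei made up 66.9% of responder 1 (exact binomial 95% interval 66.1 to 67.8%) and 19.2% of responder 2 (18.4 to 20.2%). The untreated tumors held 48.7%, 65.2%, 49.6% and 61.2%. The means were 43.1% ± 33.7 (SD, n = 2) and 56.2% ± 8.28 (SD, n = 4), and the responders were the highest and the lowest of the 6 tumors. The intervals cover counting error only. The exact two-sided permutation test over tumors gave p = 0.667, and the smallest p that 4 against 2 tumors allow is 0.133, so that no share could pass 0.05. When the unnamed mixed clusters, chiefly that of responder 2, were given to the tumor-like class (an alternative chosen after seeing the data), the difference in the share of tumor-like nuclei turned from -13.1 to 0.633 percentage points. The naming rule was settled after class counts had been seen, so the shares are not independent of it.

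None of the other classes separated by group. Fibroblast-like nuclei formed 10.6% and 14.1% of the responders and 4.98% to 23.1% of the untreated tumors. The lowest value, of untreated 1, was 13.3% at Leiden resolution 0.5 and 14.6% with no margin asked between classes, the latter chosen after seeing the data. Macrophage-like nuclei formed 3.48% and 3.39% of the responders, inside the untreated range of 1.22% to 4.86%. Myocyte-like nuclei formed 4.40% of responder 1 and 20.9% of responder 2, against 3.49% to 18.4% in the untreated tumors. The share in responder 2 was 39.7% at Leiden resolution 0.5, a coarser clustering, and 54.9% with its mixed cluster named myocyte-like, a choice made after seeing the data. Endothelial-like nuclei (7.21% and 6.14%, against 6.73% to 10.1%) and pericyte-like nuclei (2.33% and 1.71%, against 1.56% to 3.28%) overlapped as well. Over these 6 shares the exact permutation p adjusted by Benjamini-Hochberg was 0.933 for each. Osteoclast-like nuclei formed 1.21% and 0.504% of the responders and 0.972%, 3.68%, 4.01% and 1.77% of the untreated tumors, and were not tested.

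**Figure D2:**
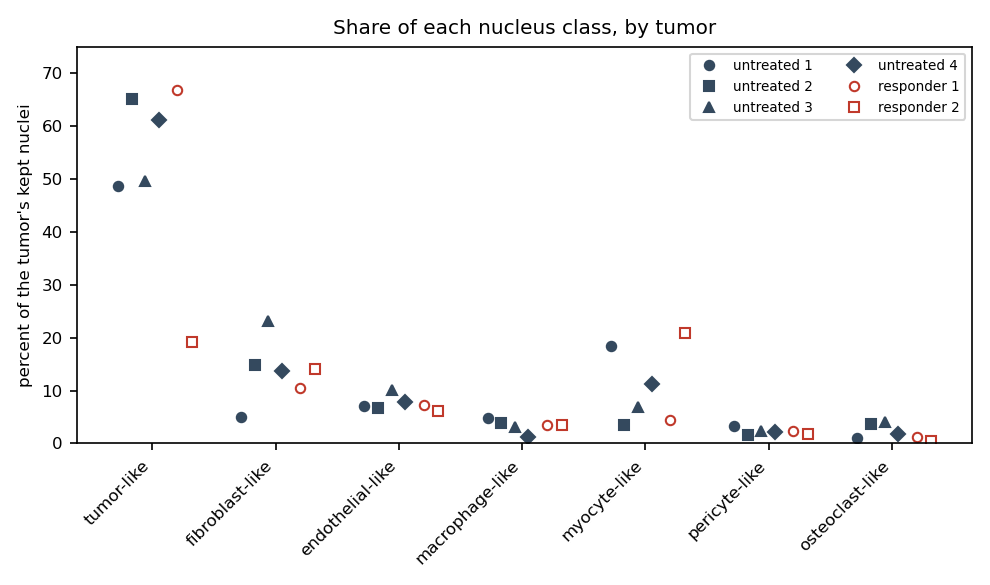
Percent of kept nuclei in each class, by tumor. Filled symbols are untreated tumors and open symbols responders. The 2 responders lie at both ends of the tumor-like column (66.9% and 19.2%) and within or next to the untreated range in the other classes.

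The RNA content of tumor-like nuclei was asked next, since a block of polymerase II can lower it. Tumor-like nuclei held a median of 4057 UMIs in responder 1 and 2603 in responder 2. The untreated tumors held 3822, 3009, 2486 and 1495, so that the groups overlapped (exact two-sided permutation p = 0.533). With each nucleus thinned to 1000 UMIs, the median number of genes was 763 and 736 in the responders and 810, 756, 755 and 765 in the untreated tumors (exact permutation p = 0.400). All tumor-like nuclei had at least 1000 UMIs, and their unthinned medians were 2165 and 1516 genes in the responders and 1057 to 2238 genes in the untreated tumors. Depth per tumor differs between libraries for reasons outside the nucleus too, so UMIs per nucleus measure RNA content and sequencing depth together. Nuclei under 1000 UMIs were left out before these medians, 7375 of 12615 in untreated 4 and 0 in responder 1. A loss of RNA could thus remove nuclei instead of lowering a median, so the medians cannot decide the question. With at least 2000 UMIs asked, the difference in UMIs per nucleus turned from 627 to -485.

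In tumor-like nuclei, summed per tumor, no gene passed the test. Of 13558 genes tested with edgeR's quasi-likelihood test, 0 (0%) had a Benjamini-Hochberg adjusted p under 0.05 and the smallest adjusted p was 0.924. At an unadjusted p under 0.05 there were 547 genes, 123 with a higher and 424 with a lower fitted level in responders. DESeq2, run as an alternative, called 1 gene higher and 24 lower. The values in both responders lay above all untreated tumors for 576 genes (4.25%) and below them for 1707 (12.6%), which is the background for the counts that follow. Without untreated 1, a setting chosen after seeing the data, these shares were 8.37% and 15.9% of 13321 genes, and again 0 genes were called. The 4 untreated samples come from separate matrices but the labels do not say that they are separate animals, so the test measures the spread between these samples.

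Of the 10 genes below all untreated tumors with the smallest p, several are known from blood cells. Pik3ap1, an adaptor of PI3-kinase in lymphoid and myeloid cells (chromosome 19, 41260816 to 41373548, GRCm39), measured 4.01 and 4.76 CPM in the responders. In the untreated tumors it measured 37.3, 21.5, 21.4 and 16.3 CPM, all above both responders (log2 difference -2.32 ± 0.35 SE, adjusted p = 0.924 by edgeR). The same genes were much higher in other classes. Pik3ap1 averaged 298 CPM in osteoclast-like and 292 CPM in macrophage-like nuclei of untreated tumors, against 24.1 CPM in their tumor-like nuclei. St18, a zinc finger factor that averaged 2372 CPM in untreated osteoclast-like nuclei, measured 12.2 and 6.27 CPM in tumor-like nuclei of the responders and 53.1, 47.4, 52.8 and 28.8 CPM in those of the untreated tumors. Lcp2, the SLP-76 adaptor of immune receptors, measured 4.81 and 3.68 CPM against 38.8, 19.6, 23.3 and 11.8 CPM. Ciita, the master regulator of MHC class II, measured 2.50 and 3.03 CPM against 13.9, 11.7, 7.69 and 7.63 CPM. Ptk2b, the focal adhesion kinase PYK2, measured 5.55 and 5.84 CPM against 14.5 to 39.8 CPM.

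Markers of blood cells were also present in tumor-like nuclei, at unequal levels. The 8 macrophage markers summed to 206 and 226 CPM in the responders and to 221 to 742 CPM in the untreated tumors. The 5 osteoclast markers summed to 153 and 60 CPM in the responders and to 114 to 1079 CPM in the untreated tumors, and so overlapped. The 8 T and NK cell markers summed to 3.41 and 3.03 CPM in the responders and to 9.18 to 127 CPM in the untreated tumors. Whether free RNA from those cells set the values of Pik3ap1, St18, Lcp2, Ciita and Ptk2b in tumor-like nuclei was not tested.

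The other 5 genes of that set have other known uses. Nav3, a neuron navigator protein of microtubule ends, measured 221 and 186 CPM in the responders and 528, 396, 559 and 495 CPM in the untreated tumors. Galnt13, a glycosyltransferase that starts O-linked sugar chains, measured 0.874 and 0.649 CPM against 3.89 to 5.52 CPM. Trp53i11, a p53-inducible gene, measured 14.1 and 13.8 CPM against 28.1 to 46.1 CPM. Ttc7, a scaffold of the complex that makes PI4P at the cell membrane, measured 15.2 and 14.7 CPM against 27.9 to 39.0 CPM. Slc13a3, a carrier of dicarboxylates, measured 0.146 and 0 CPM against 1.21 to 3.76 CPM, and a count of 0 in responder 2 allows up to 0.649 CPM. DESeq2 called all 10 of the genes just described (adjusted p from 7.00e-06 to 0.0457), while edgeR called none. In untreated tumors, Nav3 averaged 1819 CPM and Galnt13 51.9 CPM in fibroblast-like nuclei, against 495 and 4.34 CPM in tumor-like nuclei. Trp53i11 averaged 272 CPM in endothelial-like against 35.3 CPM in tumor-like nuclei. In osteoclast-like nuclei Ttc7 averaged 222 CPM and Slc13a3 20.7 CPM, against 32.9 and 2.03 CPM in tumor-like nuclei. Whether free RNA from those classes set their values in tumor-like nuclei was not tested.

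The 10 genes above all untreated tumors included cell-surface genes of nerve cells. Il1rapl1, a synaptic adhesion receptor of the X chromosome, measured 31.1 and 86.9 CPM in the responders and 5.50, 6.45, 8.91 and 17.7 CPM in the untreated tumors (log2 difference 2.71 ± 0.63 SE). Spock3, a proteoglycan, measured 77.0 and 75.9 CPM against 11.4, 8.98, 29.8 and 26.3 CPM. Gria4, a subunit of AMPA glutamate receptors, measured 14.5 and 64.2 CPM against 3.17 to 10.7 CPM. Heph, a ferroxidase that moves iron out of cells, measured 41.6 and 41.1 CPM against 5.78 to 19.7 CPM. Matn2, a matrix filament protein, measured 215 and 223 CPM against 96.4 to 137 CPM. Smaller spans were seen for Gpr137c (39.6 and 58.4, against 20.9 to 29.7 CPM), Ypel1 (19.3 and 28.1, against 9.05 to 13.2 CPM), B3galnt2 (69.7 and 69.4, against 47.3 to 59.7 CPM) and Syngr4 (1.18 and 1.51, against 0.270 to 0.511 CPM). Zfp575, a zinc finger gene, measured 13.2 CPM in responder 1 and 1.73 CPM in responder 2, the latter from 8 UMIs, against 0 to 0.253 CPM in the untreated tumors. All had an adjusted p of 0.924 by edgeR, and DESeq2 called Zfp575 alone.

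**Figure D3:**
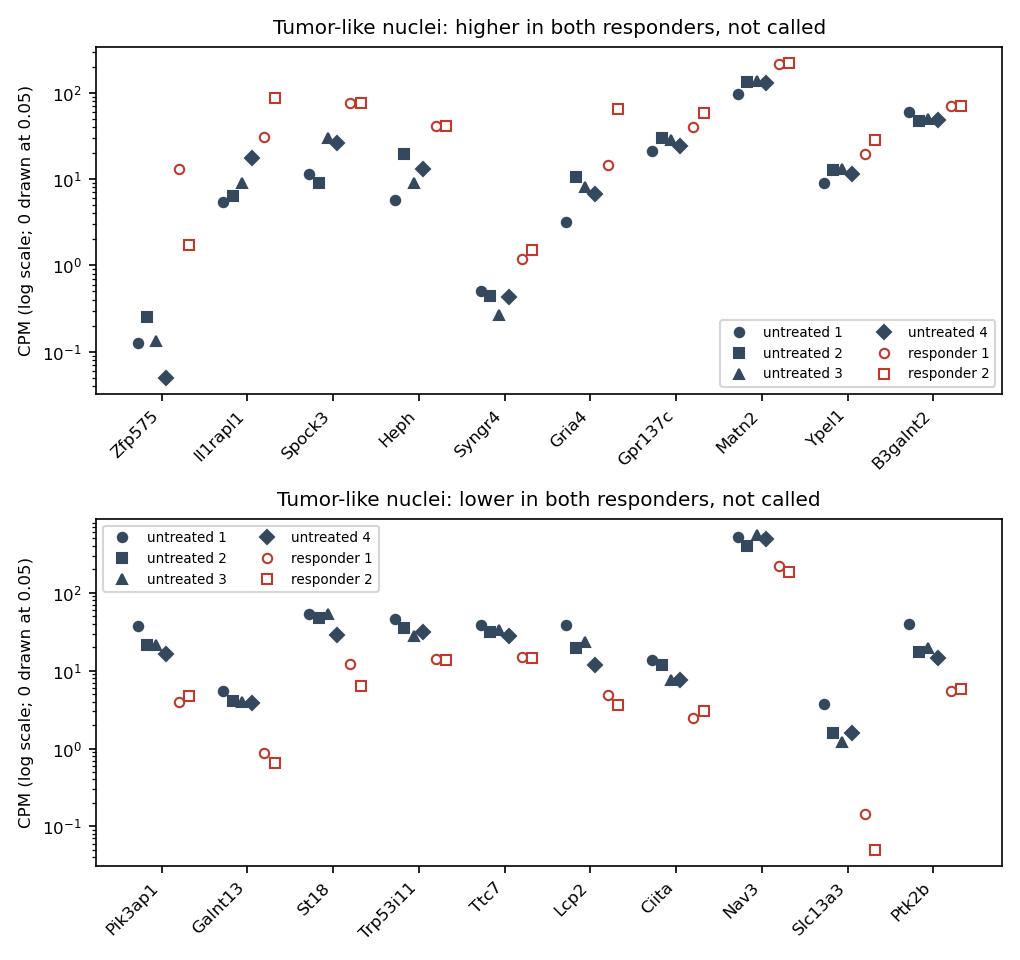
CPM (log scale, with 0 drawn at 0.05) of the 10 genes above and the 10 genes below all untreated tumors, in the tumor-like nuclei of each tumor. Filled symbols are untreated tumors and open symbols responders. The genes were picked by non-overlap and smallest p, so the gaps between groups are what the choice required, and 0 of them passed the edgeR test.

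The drug's target and most of the fusion's targets overlapped between groups. Ercc3 measured 12.1 and 11.2 CPM in tumor-like nuclei of the responders and 12.8, 11.4, 12.3 and 12.5 CPM in those of the untreated tumors (log2 difference 0.05 ± 0.24 SE). Polr2a, the largest subunit of polymerase II, measured 164 and 175 CPM against 115 to 228 CPM. Of 22 genes of polymerase II and TFIIH, 15 had a fitted level above and 7 below that of the untreated tumors, 0 were called, and the median log2 difference was 0.05, beside -0.01 over all genes tested. Etv1 measured 6876 and 4180 CPM against 4134 to 4975 CPM, Etv4 measured 3218 and 1982 CPM against 2371 to 3935 CPM, and Etv5 measured 1640 and 1600 CPM against 1178 to 1946 CPM. Vgf, a neuropeptide precursor and fusion target, measured 2789 CPM in responder 1 and 1213 CPM in responder 2, against 934 to 1576 CPM. Dusp4, a phosphatase that acts on ERK, measured 250 and 89.7 CPM against 91.9 to 387 CPM. Of the 15 fusion targets, 0 were called and the median log2 difference was 0.30, or 0.06 without untreated 1. Etv1, Etv4, Etv5, Shc3 and Shc4 were also the markers that named the tumor-like nuclei. A cluster with fewer than 3 of these markers raised could not be named tumor-like, so a loss of them could go unseen here. Shc3, a signaling adaptor, was the 1 target of 15 above all untreated tumors, beside 4.25% of all genes, at 2548 and 2411 CPM against 886, 2220, 2356 and 2298 CPM. Myc was the 1 target of 15 below all untreated tumors, beside 12.6% of all genes, at 10.9 and 7.35 CPM against 27.9, 19.7, 11.3 and 14.5 CPM (log2 difference -0.84 ± 0.37 SE).

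Of 16 pause-release and 10 ERK feedback genes, 3 and 2 lay below all untreated tumors, beside 12.6% of all genes. Hexim1, which holds the kinase P-TEFb inactive, measured 8.56 and 9.95 CPM in the responders and 24.2, 14.98, 18.8 and 21.7 CPM in the untreated tumors. Cdk9, the kinase of P-TEFb, measured 24.2 and 18.8 CPM against 25.9 to 49.3 CPM. Nelfa, a subunit of the pausing factor NELF, was the 1 pause-release gene above all untreated tumors, beside 4.25% of all genes. The median log2 difference of the pause-release list was -0.01. The 2 low ERK feedback genes were Dusp5 (4.15 and 5.19 CPM, against 7.90 to 15.7) and Spry2 (52.8 and 47.4 CPM, against 54.1 to 84.9). None of these was called.

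Among cell cycle genes, the G2/M list was highest in responder 1, and the G2/M and S-phase lists were lowest in untreated 1. Of 24 G2/M genes, 24 had a fitted level above that of the untreated tumors and 0 were called, with a median log2 difference of 0.53. Without untreated 1 the count was 22 and the median 0.29. The list summed to 1865 CPM in responder 1, 1203 CPM in responder 2, and 482, 1330, 1423 and 1329 CPM in the untreated tumors, so that responder 2 lay within the untreated range. The 25 S-phase genes summed to 1427 and 1209 CPM in the responders and to 510, 1201, 1158 and 1433 CPM in the untreated tumors. Ube2c and Ccnb2, both needed for mitosis, lay above all untreated tumors (13.4 and 10.4 CPM against 6.67 to 9.99, and 21.9 and 20.8 CPM against 11.6 to 19.03).

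Immediate early genes and p53 targets mostly had a lower fitted level, again with untreated 1 as the highest tumor. Of 24 immediate early genes, 22 had a fitted level below that of the untreated tumors, with a median log2 difference of -0.66. Of these genes, 4 lay below all untreated tumors, beside 12.6% of all genes, and 0 were called. Without untreated 1, 23 were below, 4 lay below all remaining tumors, beside 15.9% of all genes, and the median was -0.34. The list summed to 320 and 397 CPM in the responders and to 1217, 485, 426 and 530 CPM in the untreated tumors. Fosl2, a subunit of AP-1, measured 9.11 and 13.8 CPM against 36.3, 22.6, 27.7 and 20.7 CPM (log2 difference -1.10 ± 0.30 SE). Birc3, an inhibitor of apoptosis and target of NF-kB, measured 13.2 and 11.5 CPM against 70.3, 29.2, 26.3 and 23.6 CPM. Ddit3, the stress factor CHOP, measured 5.44 and 7.13 CPM against 9.18 to 18.6 CPM. Heat shock genes were split, with 8 of 16 on each side and a median of -0.05, which was 0.18 without untreated 1. The p53 targets had 16 of 20 below and a median of -0.44, or 13 below and -0.27 without untreated 1.

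Genes of interferon signaling, which cells switch on against viruses and in inflamed tissue, lay mostly below the untreated tumors. Of 35 tested genes, 34 had a fitted level below that of the untreated tumors and 19 lay below all of them, beside 12.6% of all genes, and 0 were called. Their median log2 difference was -1.33. Without untreated 1, 30 of 32 were below, 19 lay below all 3 remaining tumors, beside 15.9% of all genes, and the median was -0.87. The list summed to 117 and 118 CPM in the responders and to 635, 206, 226 and 176 CPM in the untreated tumors. In the same nuclei the T and NK cell markers were also below all untreated tumors (3.41 and 3.03 CPM, against 9.18 to 127 CPM), and the macrophage markers overlapped at the low end (206 and 226 CPM, against 221 to 742 CPM). Their part in the interferon values was not tested. Usp18, which removes the interferon-induced modifier ISG15, measured 0.2003 and 0.216 CPM in the responders (11 and 1 UMIs) and 5.39, 1.01, 1.75 and 2.02 CPM in the untreated tumors. Irf1, a transcription factor of the response, measured 10.0 and 6.92 CPM against 44.9, 18.9, 15.7 and 14.5 CPM. Gbp6, a guanylate-binding GTPase, measured 0.2003 and 0.216 CPM against 0.720 to 3.48 CPM. Of 17 genes of MHC class I presentation, many of them also induced by interferon, 16 were below. Of these 17, 5 lay below all untreated tumors, beside 12.6% of all genes, and the median was -0.79. With untreated 1 left out, 12 were below, 5 lay below all remaining tumors, beside 15.9% of all genes, and the median was -0.29.

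Interferon-induced genes are switched on through the interferon-stimulated response element, whose core (TTTC, any 2 bases, then TTTC) is bound by a complex that holds STAT2 and IRF9. The promoters of 29 of the 40 listed genes were found in RefSeq (GRCm38.p6). The core stood on either strand in the 250 bases before the start in 17 of 34 promoters (50%), against 2.98% of 32851 promoters of all genes. Stretches are given from 4 members that hold it, picked by smallest p with a single chromosome passed over. They are written on the strand of the gene, with the core in capitals. In Oas1a the core lies on the opposite strand, so the capitals are its reverse complement.
Oas1a (chr5:120907526-120907565, minus strand): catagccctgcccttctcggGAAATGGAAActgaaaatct
Gbp3 (chr3:142559979-142560028, plus strand): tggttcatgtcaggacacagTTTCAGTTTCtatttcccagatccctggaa
Gbp5 (chr3:142496749-142496798, plus strand): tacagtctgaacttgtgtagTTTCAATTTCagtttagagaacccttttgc
Stat2 (chr10:128270256-128270305, plus strand): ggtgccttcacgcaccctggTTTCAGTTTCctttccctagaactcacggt
In tumor-like nuclei, Oas1a measured 0.273 and 0.216 CPM in the responders against 0.472 to 2.74 CPM, and Gbp3 measured 0.473 and 0 CPM against 0.720 to 6.67 CPM. Gbp5 measured 0.310 and 0.865 CPM against 1.01 to 13.2 CPM, and Stat2 measured 21.9 and 14.3 CPM against 24.1 to 50.5 CPM. A match is a description of the letters and not of binding in these tumors.

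The interferon list was below the untreated tumors in each class of nuclei that was fitted. In macrophage-like nuclei the list summed to 371 and 458 CPM in the responders and to 1373, 1297, 1206 and 582 CPM in the untreated tumors. All 17 tested members had a fitted level below, 7 lay below all untreated tumors, beside 13.3% of all genes in this class, and the median log2 difference was -1.48, or -1.41 without untreated 1. The median was -0.81 over 29 genes in fibroblast-like, -0.72 over 25 in endothelial-like, -0.98 over 19 in myocyte-like and -0.82 over 9 in pericyte-like nuclei. In endothelial-like nuclei responder 2 (613 CPM) overlapped with untreated 4 (578 CPM). The classes come from the same 6 tumors and free RNA of a tumor enters all of its nuclei, so they are not separate observations. In macrophage-like nuclei the 8 macrophage markers were also below all untreated tumors (1410 and 2265 CPM, against 2423 to 5045 CPM). The part of those markers in the interferon values was not tested.

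**Figure D4:**
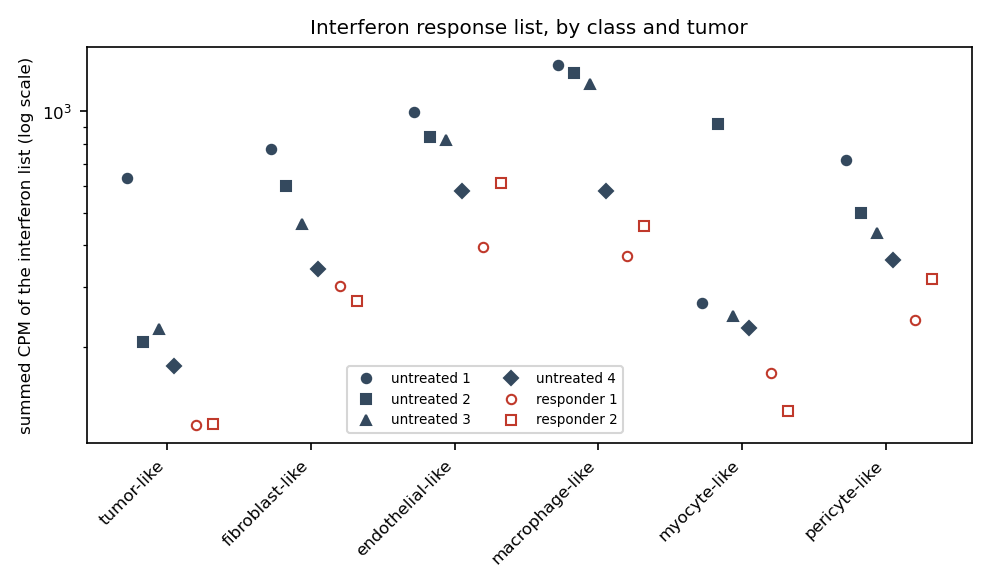
Summed CPM (log scale) of the interferon response list in 6 classes of nuclei, by tumor. Filled symbols are untreated tumors and open symbols responders. Both responders lie below all untreated tumors in tumor-like (117 and 118 CPM against 176 to 635 CPM) and macrophage-like nuclei (371 and 458 CPM against 582 to 1373 CPM), while they overlap in endothelial-like nuclei.

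Growth factors, cytokines and receptors of macrophages and osteoclasts formed another low group. Of 17 tested genes, 15 had a fitted level below and 9 lay below all untreated tumors in tumor-like nuclei, beside 12.6% of all genes. Of the 17, 0 were called, and the median log2 difference was -1.27. Without untreated 1, 11 lay below all remaining tumors, beside 15.9% of all genes, and the median was -0.76. Csf1, the growth factor of macrophages, measured 16.4 and 12.3 CPM in the responders and 76.5, 33.4, 39.5 and 26.8 CPM in the untreated tumors (log2 difference -1.45 ± 0.40 SE). Its receptor Csf1r measured 8.74 and 6.92 CPM against 11.2 to 32.5 CPM. Tnfsf11, the osteoclast factor RANKL, measured 2.71 and 4.32 CPM against 9.48, 13.2, 19.1 and 11.2 CPM. Its receptor Tnfrsf11a measured 8.12 and 7.35 CPM against 42.0, 33.5, 28.7 and 12.2 CPM. Csf1r and Tnfrsf11a are themselves markers of macrophages and osteoclasts, whose marker sums are given above.

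Few matrix, protease and vessel genes lay apart from the untreated tumors. Sned1, a secreted matrix glycoprotein, measured 40.2 and 39.3 CPM in tumor-like nuclei of the responders and 265, 87.8, 112 and 84.6 CPM in the untreated tumors (log2 difference -1.61 ± 0.46 SE, and -1.20 without untreated 1). Adamts2 (18.1 and 12.8 CPM, against 19.6 to 39.4) and Adamts5 (14.0 and 20.5 CPM, against 21.0 to 54.3), proteases that process collagen and aggrecan, lay just below the untreated tumors. Adamts10, of the same family, lay above them (146 and 144 CPM, against 107 to 129). Of 23 proteases, 9 had a fitted level above and 14 below. Of these, 1 lay above and 2 lay below all untreated tumors, beside 4.25% and 12.6% of all genes. Of 20 vessel genes, 14 were below and 3 lay below all untreated tumors, beside 12.6% of all genes. Pdgfb, which recruits pericytes, measured 23.5 and 14.5 CPM against 32.1 to 56.9 CPM. Of 26 collagen and matrix genes, 19 were below and 1 lay below all untreated tumors, beside the same 12.6% of all genes. Mks1, a gene of the ciliary transition zone, measured 16.8 and 14.5 CPM against 7.70, 9.93, 9.18 and 7.92 CPM. Bnip3, a hypoxia gene of mitophagy, measured 37.6 and 39.1 CPM against 47.8 to 79.5 CPM, and 16 of 19 hypoxia genes were below with a median of -0.22. Without untreated 1, 17 of 19 hypoxia genes were below, 8 lay below all remaining tumors, beside 15.9% of all genes, and the median was -0.46. Of 8 oncofetal genes tested, 7 were above, with a median of 0.41 that was 0.13 without untreated 1, and the imprinted gene Dlk1 ran from 1344 CPM in responder 1 and 298 CPM in responder 2 to 37.2, 259, 208 and 602 CPM in the untreated tumors.

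In fibroblast-like nuclei 0 of 11997 genes (0%) were called by edgeR, 350 reached an unadjusted p under 0.05 and by DESeq2 the calls numbered 9. Values lay above all untreated tumors for 5.18% of the genes and below for 7.04%. Sned1 measured 226 and 216 CPM in the responders and 590, 605, 589 and 746 CPM in the untreated tumors (log2 difference -1.47 ± 0.23 SE, adjusted p = 0.999 by edgeR and 1.63e-06 by DESeq2). Csf1 measured 41.5 and 44.0 CPM against 161, 167, 142 and 77.1 CPM, and Hs3st1, which adds sulfate to heparan chains, measured 13.7 and 14.9 CPM against 29.8 to 40.6 CPM. Penk, the precursor of enkephalin peptides, measured 160 and 88.4 CPM against 25.0 to 36.4 CPM. Col4a5, a chain of basement membrane collagen, measured 230 and 215 CPM against 91.4 to 116 CPM, and Dock11, a GTPase activator, measured 263 and 339 CPM against 138 to 178 CPM. In the responders Col4a5 and Dock11 averaged 489 and 512 CPM in tumor-like nuclei, against 223 and 301 CPM in fibroblast-like nuclei. Penk averaged 124 CPM in both. Of the 15 fusion targets, 8 lay above all untreated tumors in these nuclei, beside 5.18% of all genes, and the tumor markers summed to 7101 and 4520 CPM in the responders and to 1898 to 4079 CPM in the untreated tumors. Without untreated 1 the shares of all genes above and below were 10.8% and 13.1%, and 8 targets still lay above. The part of free tumor RNA in these values was not tested.

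In macrophage-like nuclei the largest number of genes had an unadjusted p under 0.05 (974 of 9070), 0 (0%) were called by edgeR and 9 by DESeq2. Values lay above all untreated tumors for 7.7% and below for 13.3% of the genes, or 10.2% and 17.1% without untreated 1. Irf8, which directs monocytes toward macrophages and is itself induced by interferon, measured 32.4 and 28.8 CPM in the responders and 124, 106, 124 and 103 CPM in the untreated tumors (log2 difference -1.82 ± 0.27 SE, adjusted p = 0.412 by edgeR and 0.0125 by DESeq2). Trim14, an adaptor of antiviral signaling, measured 17.4 and 20.1 CPM against 83.8, 94.4, 77.6 and 59.9 CPM. Ppargc1b, a coactivator of mitochondrial genes, measured 22.4 and 23.02 CPM against 68.7 to 118 CPM. In untreated tumors Ppargc1b averaged 1007 CPM in osteoclast-like nuclei, against 89.0 CPM in macrophage-like nuclei. The 5 osteoclast markers in macrophage-like nuclei summed to 248 and 79.1 CPM in the responders, against 205 to 1714 CPM. The part of osteoclast RNA in the Ppargc1b values was not tested. Ptchd4, a protein related to the Hedgehog receptor, measured 238 and 384 CPM against 30.7 to 59.9 CPM (log2 difference 2.89 ± 0.35 SE, adjusted p = 0.284 by edgeR), and Grm5, a glutamate receptor, measured 29.3 and 21.6 CPM against 0 to 2.22 CPM. The 0 in untreated 4 allows up to 25.7 CPM of Grm5, so the groups are not shown to lie apart for it. Ptchd4 and Grm5 were higher in tumor-like nuclei of the responders (594 and 46.4 CPM on average) than in their macrophage-like nuclei. The tumor markers summed to 10915 and 8017 CPM in macrophage-like nuclei of the responders and to 2218 to 8013 CPM in those of the untreated tumors. The 8 macrophage markers summed to 1410 and 2265 CPM in the responders, below the 2423 to 5045 CPM of the untreated tumors. Whether this set the values of the lower genes in the class was not tested. The class rests on 63 to 460 nuclei per tumor, and untreated 4 had the 63.

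In endothelial-like nuclei 0 of 11008 genes (0%) were called by edgeR, 521 reached an unadjusted p under 0.05 and by DESeq2 the calls numbered 4. Values lay above all untreated tumors for 8.2% and below for 7.9% of the genes. Slco2a1, the prostaglandin transporter, measured 143 and 156 CPM in the responders and 476, 310, 478 and 336 CPM in the untreated tumors. Dtx3l, an interferon-induced ubiquitin ligase, measured 4.81 and 3.82 CPM against 15.1 to 30.9 CPM, and Ccdc125 measured 12.7 and 8.59 CPM against 29.3 to 39.2 CPM. Above the untreated tumors lay Il1rapl1 (26.4 and 35.3 CPM, against 3.78 to 7.22) and Rasgrf1, an activator of RAS (10.6 and 7.63 CPM, against 0.325 to 1.03). Il1rapl1 and Rasgrf1 were higher in tumor-like nuclei of the responders (59.0 and 18.6 CPM on average) than in their endothelial-like nuclei (30.9 and 9.10 CPM). In endothelial-like nuclei the 8 endothelial markers summed to 4317 and 4938 CPM in the responders, below the 5373 to 6822 CPM of the untreated tumors. Whether this set the values of the lower genes in the class was not tested. The tumor markers summed to 8398 and 5180.5 CPM in endothelial-like nuclei of the responders and to 1481 to 5625 CPM in those of the untreated tumors. The part of free tumor RNA in these values was not tested.

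In myocyte-like nuclei 0 of 11315 genes (0%) were called by edgeR, 226 reached an unadjusted p under 0.05 and by DESeq2 the calls numbered 6. Values lay above all untreated tumors for 3.08% and below for 4.42% of the genes. Mybpc2, the myosin-binding protein C of fast fibers, measured 105 and 68.7 CPM in the responders and 288, 444, 487 and 465 CPM in the untreated tumors. Myoz1, a calcineurin-binding protein of the Z-disc in fast fibers, measured 69.3 and 53.7 CPM against 122 to 218 CPM, and Gldn measured 2.49 and 1.96 CPM against 9.56 to 32.4 CPM. Il1rapl2 measured 127 and 29.0 CPM against 2.49 to 16.9 CPM, Lpin2, a phosphatase of lipid synthesis, measured 167 and 417 CPM against 76.2 to 125 CPM, and Ces2c measured 8.71 and 22.5 CPM against 1.79 to 3.89 CPM. In these nuclei the 9 myocyte markers summed to 37983 and 54669 CPM in the responders, below the 58381 to 77655 CPM of the untreated tumors. Whether this set the values of the lower genes in the class was not tested. In the responders Il1rapl2 averaged 215 CPM in tumor-like and 78.2 CPM in myocyte-like nuclei, while Lpin2 and Ces2c were higher in the myocyte-like nuclei. The part of free tumor RNA in these values was not tested.

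In pericyte-like nuclei 0 of 7758 genes (0%) were called by edgeR, 219 reached an unadjusted p under 0.05 and by DESeq2 the calls numbered 0. Values lay above all untreated tumors for 5.45% and below for 6.3% of the genes. Fhl5 measured 41.6 and 26.3 CPM in the responders and 199, 92.3, 167 and 122 CPM in the untreated tumors. Cnn1, the calponin of smooth muscle, measured 1.26 and 3.28 CPM against 11.4 to 42.6 CPM, and Mllt11 measured 2.52 and 3.28 CPM against 13.2 to 36.2 CPM. Penk (156 and 131 CPM, against 12.9 to 52.7), Slc38a4, an amino acid carrier (47.9 and 39.4 CPM, against 12.9 to 17.2), and Cytl1 (736 and 309 CPM, against 53.9 to 224) lay above. Penk averaged 95.1 to 157 CPM and Cytl1 459 to 642 CPM in each of the 7 classes of nuclei in the responders, so these levels were not particular to pericyte-like nuclei. The tumor markers summed to 9661 and 5816 CPM in pericyte-like nuclei of the responders and to 2675 to 8260 CPM in those of the untreated tumors.

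In all nuclei of a tumor together, 0 of 14314 genes (0%) were called by edgeR, 611 reached an unadjusted p under 0.05 and by DESeq2 the calls numbered 4 higher and 73 lower. Values lay above all untreated tumors for 2.67% and below for 12.6% of the genes. Sned1 measured 57.3 and 62.0 CPM in the responders and 259, 162, 211 and 183 CPM in the untreated tumors (log2 difference -1.61 ± 0.22 SE, adjusted p = 0.934 by edgeR and 1.35e-07 by DESeq2). Lcp2 (11.7 and 8.86 CPM, against 35.1 to 55.1), Lcp1, an actin bundler of blood cells (36.1 and 32.9 CPM, against 60.8 to 104), Shtn1 (18.95 and 20.5 CPM, against 48.1 to 77.8) and Ptk2b (11.8 and 11.3 CPM, against 24.8 to 37.2) lay below. Cemip, a hyaluronan-degrading factor (8.77 and 9.29 CPM, against 21.5 to 46.6), Pappa, a protease that frees insulin-like growth factors (50.9 and 53.8 CPM, against 106 to 137), Lurap1l (13.8 and 10.1 CPM, against 32.7 to 74.3), Galnt13 (1.79 and 1.02 CPM, against 7.85 to 19.4) and C77080 (8.08 and 8.23 CPM, against 18.9 to 23.9) lay below too. Acsl3, which activates fatty acids, measured 107 and 96.4 CPM against 52.9 to 66.9 CPM, Car11 measured 3.42 and 3.46 CPM against 0.958 to 1.70 CPM, and Mks1 measured 15.7 and 14.6 CPM against 6.52 to 9.63 CPM. Zfp575, Il1rapl1, Spock3, Gria4, Heph, Slco1a4 and Abhd6 lay above all untreated tumors as well, and for the hydrolase Abhd6 the values were 42.3 and 56.8 CPM against 26.9 to 32.4 CPM. In whole tumors fewer cells of a type and less RNA per cell cannot be told apart, and the shares of the classes differ between these tumors.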

How the data were processed

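Counts of UMIs per gene and nucleus were used as deposited. The authors aligned 3′ single-nucleus libraries to mm39 with Cell Ranger, intronic reads included. The submitters' processing notes name Cell Ranger 7.0.1 and bcl2fastq 2.20, while the file headers name 9.0.1. The matrices list 19059 features, including 13 mitochondrial and 0 ribosomal protein genes. Response words were taken from the matrix names, each matrix was taken as a tumor, and 2 further Minnelide tumors were left out. Members, gene lists and tests were chosen with earlier results of these data known.

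Nuclei with at least 1000 UMIs and under 5% mitochondrial UMIs were clustered with 2000 variable genes (markers, fusion targets and Y-linked genes left out), 30 principal components, 40 neighbours and Leiden resolution 1.0 (scanpy 1.11.5, igraph 0.11.9), without integration. Doublets were scored with Scrublet and kept in the main result; removing the top scores, at 0.8% per 1000 nuclei (2999 nuclei), was an alternative. A cluster's marker was raised at 1.5-fold over the tumor's 10th-percentile cluster, after adding 20 CPM, with detection in 5% of nuclei. A name needed 3 raised markers, the best mean fold, leading genes not of another class, and a margin of 0.25 log2 over the next class. This rule was revised with the class counts of each tumor in view, ahead of the group tests. An earlier version ranked leading genes against all other nuclei, leaving cluster 6 of untreated 2 unnamed and naming the mixed cluster 5 myocyte-like. A stricter version named almost no nuclei. Another ranked them within a tumor, leaving clusters 7 and 9 of untreated 1 unnamed. The version used ranks leading genes by the same fold as the markers. Unnamed nuclei were 34.0% of responder 2 and 11.7% of untreated 1.

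Counts were summed per tumor and class (at least 30 nuclei per tumor). edgeR 4.0.16 (TMM, filterByExpr, quasi-likelihood test, Benjamini-Hochberg threshold 0.05) was the main test, checked on simulated data. DESeq2 1.42.0 was an alternative. CPM are of the summed UMIs; responders minus untreated gives the sign of log2 differences. Shares used exact two-sided permutation tests over tumors. The named genes are, in tumor-like and all nuclei, the 10 per direction (3 in other classes) with the smallest p among genes whose groups do not overlap, up to 2 a direction from each list, and 11 chosen genes. Some genes that this rule names are not reported here. The promoter motif, the values without untreated 1 and 5 naming alternatives were chosen after seeing the data. Reads of genes with near-identical copies (Gbp, H2 and Oas families) are uncertain.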

Additional observations from a re-analysis of the deposited data

Results flagged for a closer look

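Among the 4 untreated tumors, untreated 1 lay far from the other 3 in 8 of 41 values tested for a single distant sample, a test that flags about 1 in 20 groups by chance. All 8 are of tumor-like nuclei, and apart from the shares of the classes only values of tumor-like nuclei were tested. The 8 come from the same nuclei of 1 tumor, so they are not separate observations. The summed level was 482.1 CPM for G2/M genes (1328.7 to 1423.2 CPM in the other untreated tumors), 1216.7 CPM for immediate early genes (426.3 to 530.46 CPM), 2651.5 CPM for genes of the BCL2 and inhibitor of apoptosis families (1407.1 to 1583.8 CPM) and 635.45 CPM for interferon genes (175.91 to 225.5 CPM). It was 2949.8 CPM for oncofetal genes (6836.1 to 7242.7 CPM), 1790.7 CPM for genes of developing and denervated muscle (2083.7 to 2098 CPM) and 32.341 CPM for erythroid genes (6.9096 to 9.9187 CPM). Sned1 measured 265.48 CPM (84.643 to 111.94 CPM).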

How the results depend on the processing

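edgeR called 0 genes in each of the 7 sets of nuclei, whichever tumor was left out. DESeq2 called 25 genes in tumor-like, 77 in all, 9 in fibroblast-like, 4 in endothelial-like, 9 in macrophage-like and 6 in myocyte-like nuclei, and 0 in pericyte-like nuclei. Without the filter on low counts, edgeR called 1 gene in macrophage-like nuclei, Ptchd4. Of 166 named-gene results, 43 passed the threshold with DESeq2, and of 2123 values under alternatives 52 had the opposite sign. With the mixed clusters given to tumor-like, a choice made after seeing the data, the log2 differences turned to -0.25 for Egr2, -0.17 for Lif, -0.0733 for Ccl7, 0.58 for Trim63, -0.00947 for Polr2a and -0.0545 for Etv5, and the share of tumor-like nuclei to 0.633 percentage points. With clusters 7 and 9 left unnamed, also chosen after seeing the data, they turned to -0.11 for Egr2, -0.0852 for P4ha2, -0.29 for Lif, -0.0400 for Polr2a and -0.0378 for Ercc3. With at least 2000 UMIs, Polr2a turned to -0.0134 in tumor-like nuclei, Etv4 to 0.00284 in all nuclei, and UMIs per tumor-like nucleus to -485. At Leiden resolution 0.5 the share of macrophage-like nuclei turned to -0.28 percentage points. The causes were not tested.

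Leaving out a tumor at a time changed the sign of some log2 differences. In tumor-like nuclei the ranges were Dusp4 -1.28 to 0.19, Dusp6 -0.15 to 0.54, Polr2b -0.39 to 0.00406, Gtf2h1 -0.22 to 0.0384, Nelfcd -0.19 to 1.15, Cdc6 -0.56 to 0.0731, Nr4a2 -0.21 to 0.77, Egr2 -0.33 to 0.32, Bax -0.00415 to 0.49, Hspd1 -0.0548 to 0.71, Dhx58 -0.15 to 0.76, P4ha2 -0.0541 to 0.25, Lif -0.25 to 0.21, Ccl7 -0.94 to 0.59, Igf2 -1.22 to 2.31, Aplnr -0.00608 to 0.59, Chrng -0.59 to 2.12, Gadd45a -1.99 to 1.97, Trim63 -4.78 to 0.71, Kdm5d -3.60 to 0.48, Polr2a -0.15 to 0.23, Etv4 -0.56 to 0.13 and Etv5 -0.086 to 0.21. In all nuclei they were Dusp4 -1.42 to 0.53, Polr2a -0.11 to 0.26, Etv4 -0.72 to 0.44, Etv1 -0.26 to 1.01, Etv5 -0.15 to 0.44 and Ercc3 -0.0465 to 0.0682. The shares ranged, in percentage points, from -36.95 to 10.7 for tumor-like, -4.98 to 1.07 for fibroblast-like, -0.47 to 0.75 for macrophage-like and -5.63 to 10.9 for myocyte-like nuclei, and UMIs per tumor-like nucleus from -99.8 to 1354. A lone responder was assumed to vary like the untreated tumors. No paired analysis was possible because the labels give no replicate numbers. With 4 against 2 tumors, a share could not reach a permutation p under 0.133, and the 63 macrophage-like nuclei of untreated 4 limit that class to genes above 25.7 CPM there.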

Other observations

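The Y-linked gene Kdm5d measured 4.02 CPM in tumor-like nuclei of responder 1 and 67.9 CPM in those of responder 2, while Uty measured 356 and 359 CPM in the same nuclei. In untreated 4, Kdm5d measured 0.576 CPM and Uty 4.75 CPM, and in the other untreated tumors Kdm5d ran from 56.3 to 84.6 CPM and Uty from 233 to 377 CPM.

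Hemoglobin transcripts in tumor-like nuclei were low in both responders. Hbb-bs measured 0.747 and 0.432 CPM there and 14.96, 1.71, 3.17 and 1.87 CPM in the untreated tumors, and Hba-a2 measured 0.419 and 0.216 CPM against 4.83, 0.695, 1.48 and 0.72 CPM.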
